A study of Gallus gallus with 24 samples.

Results

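Hoxd13 was misexpressed in the midgut mesoderm of chick embryos, and the mesoderm was compared with midgut mesoderm that received a GFP reporter (mGFP). The comparison covers 8 midgut libraries of the 12 distinct libraries in the series: Hoxd13 midgut 1 to 4 and mGFP midgut 1 to 4. The test used 7 of them. Hoxd13 midgut 4 was left out of it for a low number of detected genes and was placed afterwards on the changes found from Hoxd13 midgut 1 to 3. Of the 17136 genes in the table, 12835 had a CPM (a count relative to all counts of its library) of at least 1 in at least 3 of the 7 libraries, and these were tested.

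Both groups were chick embryos kept at 38 °C and electroporated in ovo at stage HH17, a stage of early organ formation, into the splanchnic lateral plate mesoderm at midgut level. The Hoxd13 group received RCAS-Hoxd13 and the control group RCAS-mGFP, so the controls carried the virus too. RCAS is a replicating avian retrovirus, and the labels do not say how many cells were infected or whether embryos were pooled. The endoderm had been peeled away by hand before RNA was taken, and messenger RNA libraries were made with a strand-specific kit. The remaining group, mGFP hindgut 1 to 4, took no part in the test and is used below as outside data. The labels give embryonic day 12 and embryonic day 14, with 24 samples in all, but the tables of the 2 ages differed in 0 lines below their headers, so the age of these values is not known.

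Hoxd13 belongs to the posterior end of the HoxD cluster, a row of homeobox transcription factor genes expressed in nested domains along the body and gut axes. In the chick gut it is normally expressed in the most posterior hindgut mesoderm, which lies next to the epithelium of the large intestine, and the midgut forms most of the small intestine. Signals from the mesoderm help to set regional character in the overlying epithelium, and the study asked which mesodermal genes follow Hoxd13 directly or indirectly.

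The table gives genes by Ensembl ID only. None of the 17136 IDs could be paired with a symbol (0 matched the reference gene table), so 19 lists of pathway genes and cell type markers could not be applied, and the misexpressed gene could not be looked up by name. Library totals ran from 7607185 to 10497615 counts in Hoxd13 midgut and from 8389592 to 10880695 in mGFP midgut. Hoxd13 midgut 4 had the lowest total and counts in 13480 genes, where the other 11 libraries had counts in 14565 to 14832. The 100 genes with most counts held 34.0% of that library and 21.7% to 24.1% of the other 11. Thinned to the same total of 7607185 counts, the other 7 midgut libraries kept 14463 to 14723 genes. The labelled tissue could not be checked against its defining markers.

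A total of 805 genes differed between Hoxd13 midgut 1 to 3 and mGFP midgut 1 to 4, which is 6.27% of those tested. In Hoxd13 midgut 230 of them rose (1.79% of tested genes) and 575 fell (4.48%), at an edgeR adjusted p under 0.05. Among all called genes the falls were larger than the rises, with a median change of 1.79-fold for genes that rose and 2.32-fold for genes that fell. The order was reversed in the 23 higher and 9 lower genes called in every fit with 1 library left out. Their median log2 fold changes were 1.76 and -1.35. It was not reversed at an edgeR adjusted p under 0.01, with medians of 1.84 over 16 higher and -1.93 over 6 lower genes. Rises of at least 2-fold were seen in 93 genes and falls of at least 2-fold in 353. Over the 805 called genes the contrast widened with size, with 23 genes at least 4-fold higher and 160 at least 4-fold lower. At 8-fold or more there were 3 higher and 52 lower genes.

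The Hoxd13 and mGFP libraries were fully separate in all 805 called genes, and also in 23.8% of the genes tested. Such separation was about as common in either direction over the whole table, with Hoxd13 midgut higher in 11.0% of tested genes and lower in 12.7%. Most calls sat near the threshold: 617 of the 805 had an adjusted p of 0.03 or more, and 22 were under 0.01. Standard errors on the log2 scale had a median of 0.168 over tested genes, 0.164 over the higher genes and 0.242 over the lower genes. A gene with a larger standard error needs a larger change to be called, so the sizes among called genes are a description.

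Higher and lower genes lay at different levels of expression. The share of tested genes called higher was between 1.44% and 2.18% in each of 5 classes of average level. The share called lower was 0.919% below an average log2 CPM of 2, then 2.25%, 3.92% and 7.56% in the classes that start at 2, 4 and 6, and 14.7% at 8 or more. The standard error fell with level, with a median of 0.391 in the lowest class and 0.122 in the highest. The higher genes had a median level of 31.5 CPM in Hoxd13 midgut 1 to 3 and 16.0 CPM in mGFP midgut. The lower genes had 38.7 CPM in Hoxd13 midgut 1 to 3 and 92.0 CPM in mGFP midgut, against 26.7 and 28.1 CPM over all tested genes. Among the 100 most abundant genes of mGFP midgut, 19 were lower and 6 higher in Hoxd13 midgut, against 4.48% and 1.79% of tested genes. The 100 most abundant genes of Hoxd13 midgut 1 to 3 held 3 lower and 9 higher genes, and the lists of 100 had 70 genes in common. Each list was ranked on 1 of the compared groups, which favours lower genes in the first list and higher genes in the second. These counts are a description.

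**Figure D1:**
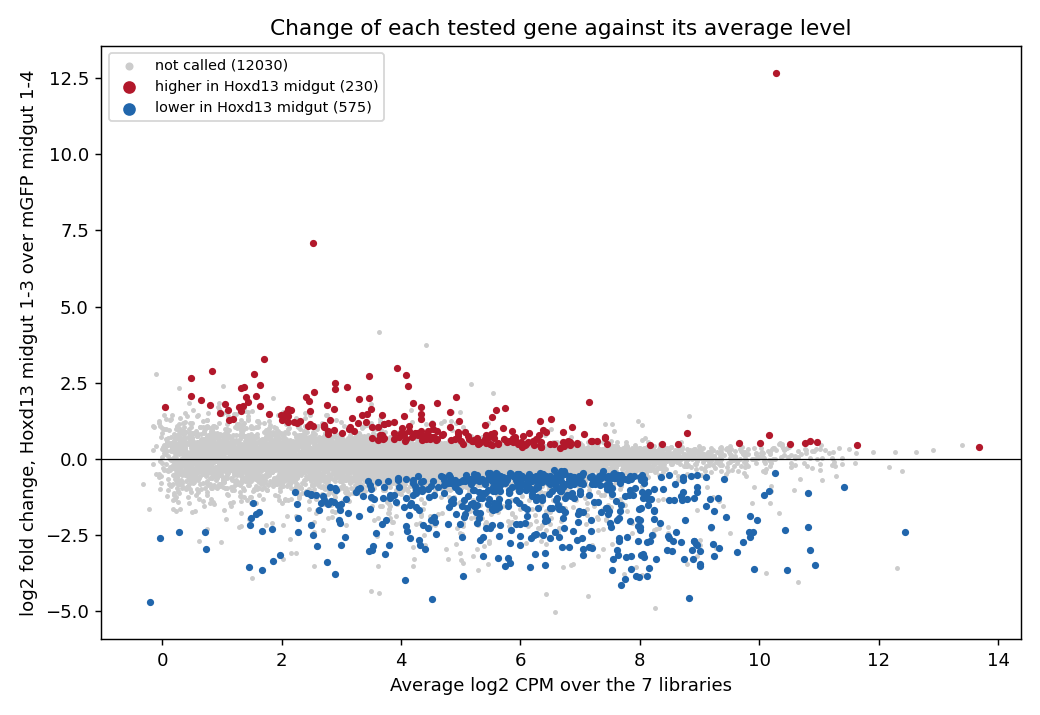
Each point is a tested gene, with its average log2 CPM over the 7 libraries on the horizontal axis and its log2 fold change, Hoxd13 midgut 1 to 3 over mGFP midgut, on the vertical axis; colours mark the 230 higher and 575 lower genes. The lower genes reach far into the abundant end. The largest rises among called genes are log2 fold changes of 12.67 and 7.08, and the third is 3.26.

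The split between directions depended on the scaling, and also on single libraries, as given further below. With TMM scaling, which assumes that most genes do not change, 28.6% of the called genes were higher, and the median log2 fold change over all tested genes was 0.02. Scaled to column totals the median was 0.17, with 801 genes higher and 545 lower (59.5% higher), and with upper-quartile scaling it was 0.12, with 532 higher and 510 lower (51.1% higher). Of the 805 genes, 701 and 727 were still called under these scalings.

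Single libraries changed the number called and the split between directions. The number called was 1428, 67 and 349 without Hoxd13 midgut 1, 2 and 3, and 76, 500, 64 and 43 without mGFP midgut 1, 2, 3 and 4. In the same order, 26.4%, 79.1% and 20.6% of the called genes were higher without a Hoxd13 library. Without an mGFP library the shares were 48.7%, 23.6%, 53.1% and 60.5%. With Hoxd13 midgut 4 added to the group, 324 genes were called, 81 higher and 243 lower, of which 286 were among the 805. With the mGFP hindguts in the fit to share the estimate of spread, 183 genes were higher and 123 lower, and 292 of these were among the 805. Calls that held in every one of the 7 fits with 1 library left out came to 23 higher and 9 lower genes. Those 23 rose by a median log2 fold change of 1.76, with median levels of 40.2 CPM in Hoxd13 midgut 1 to 3 and 11.5 CPM in mGFP midgut. The 9 lower genes had a median log2 fold change of -1.35, with median levels of 22.7 CPM in Hoxd13 midgut 1 to 3 and 68.0 CPM in mGFP midgut. At an adjusted p under 0.01, 16 genes were higher and 6 lower.

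**Figure D2:**
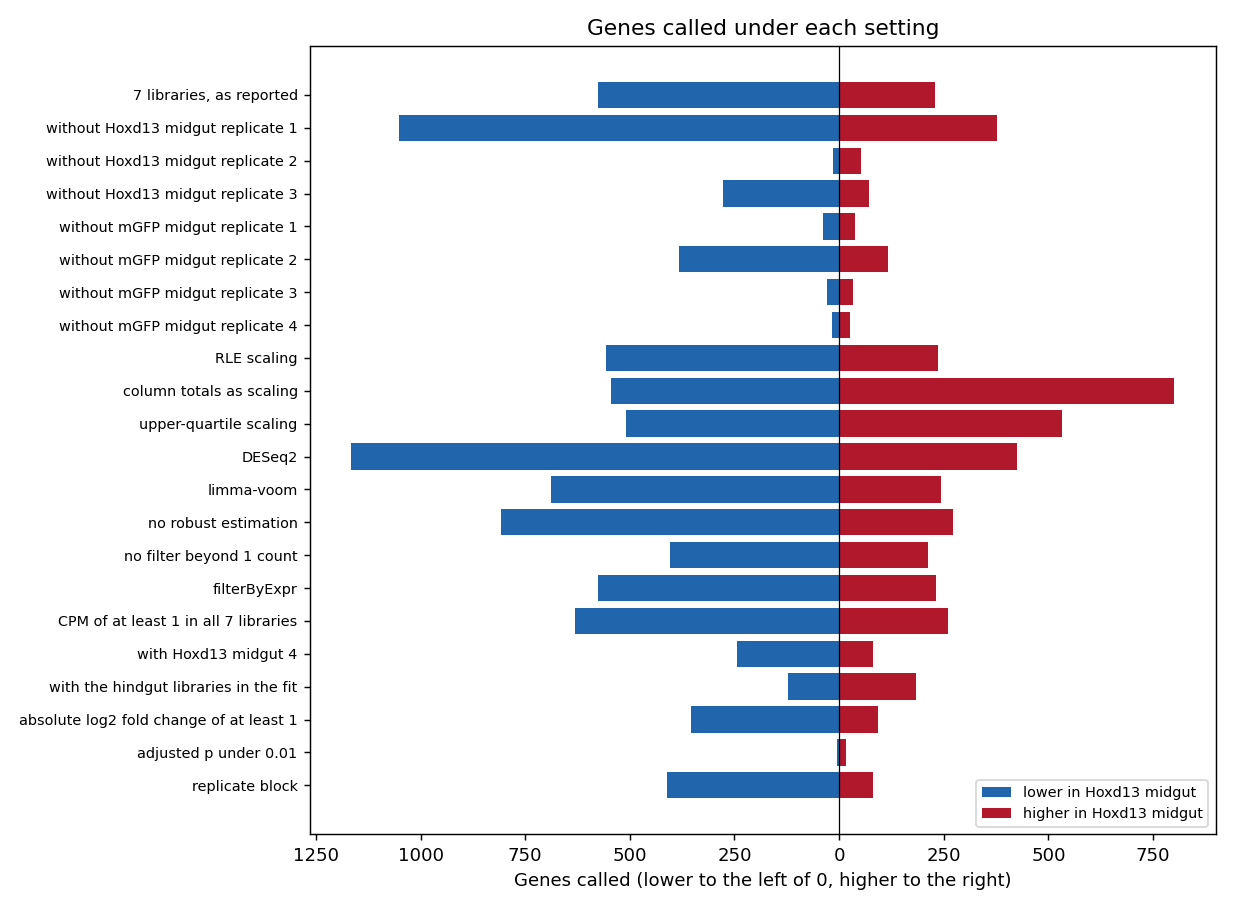
Bars give the number of genes called under each setting, with lower genes to the left of 0 and higher genes to the right. The top bar is the test reported here (575 lower, 230 higher), the next 7 leave out 1 library each and run from 43 to 1428 genes in all, and the rest change 1 other choice.

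The gene with the largest rise was ENSGALG00000032039. It reached 1915, 2871 and 3798 CPM in Hoxd13 midgut 1, 2 and 3, against 0, 0.106, 0.737 and 0.847 CPM in mGFP midgut 1 to 4. The counts behind these values were 19106, 32168 and 38914 in Hoxd13 midgut and 0, 1, 8 and 7 in mGFP midgut. No Hoxd13 library came near a control. The log2 fold change was 12.67 ± 0.68 (SE, edgeR adjusted p = 0.00253). With every mGFP midgut library under 1 CPM, this gene passed the CPM filter only through Hoxd13 midgut 1 to 3. Hoxd13 midgut 4 had 7350 CPM, the highest of the Hoxd13 libraries. In mGFP hindgut it was at 25.2, 21.1, 27.8 and 61.3 CPM, above each mGFP midgut library and below each Hoxd13 midgut library. Whether this ID is the misexpressed gene could not be checked.

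ENSGALG00000005360 had the next largest rise. It had 192, 66 and 128 counts in Hoxd13 midgut 1, 2 and 3, or 19.2, 5.89 and 12.5 CPM, against 1, 1, 0 and 1 counts in mGFP midgut 1 to 4. The control libraries were thus at the limit of detection and every Hoxd13 library was above them. With 386 counts over Hoxd13 midgut 1 to 3 and 3 over mGFP midgut, the ratio of their shares of the totals was 171, with an exact 95% binomial interval of 58 to 832 that covers counting error only. The edgeR adjusted p was 0.00253. The gene passed the CPM filter, and met the average level asked of named genes, only through Hoxd13 midgut 1 to 3. Hoxd13 midgut 4 had 21.3 CPM. In mGFP hindgut this gene stayed low, at 7, 1, 1 and 8 counts. Its level thus separated Hoxd13 midgut from mGFP hindgut as well as from mGFP midgut, a difference that was not tested. Of the 230 higher genes, this was the 1 gene with at most 3 counts in each mGFP midgut library. In all, 8 higher genes were under 1 CPM in every mGFP midgut library. Genes that low in mGFP midgut could enter the test only through the Hoxd13 libraries. The filter thus left no way for them to be called lower, and these counts are a description. In 20 higher genes all 4 mGFP midgut libraries were under 10 CPM and Hoxd13 midgut 1 to 3 were at 10 CPM or more. This count was not made over all tested genes, so it is a description too. The third largest rise among called genes was a log2 fold change of 3.26.

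**Figure D3:**
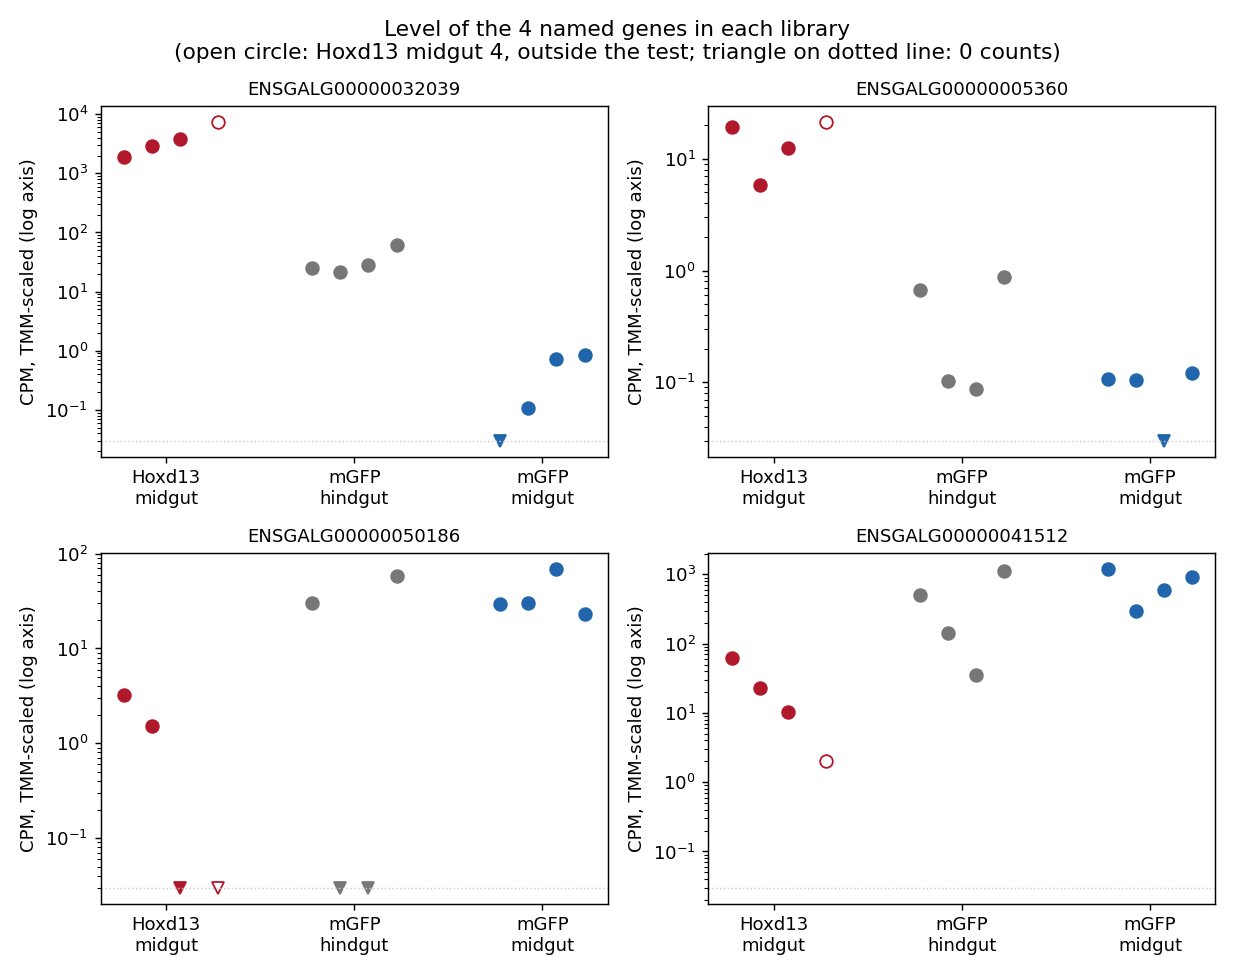
Each panel shows the level of 1 gene, in CPM on a log axis, in each library of Hoxd13 midgut, mGFP hindgut and mGFP midgut, with libraries 1 to 4 from left to right in a group. The upper genes separate all Hoxd13 midgut libraries from mGFP midgut; the lower genes fall in Hoxd13 midgut and also vary widely among the mGFP hindguts, between 35.6 and 1118 CPM for ENSGALG00000041512.

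ENSGALG00000041512, an abundant gene of mGFP midgut, was among the largest falls. It was at 62.4, 23.0 and 10.3 CPM in Hoxd13 midgut 1, 2 and 3, against 1192, 299.7, 593.1 and 911.3 CPM in mGFP midgut 1 to 4. The groups did not overlap, but the mGFP libraries themselves were spread widely, with mGFP midgut 2 the lowest. The log2 fold change was -4.57 ± 0.85 (SE, edgeR adjusted p = 0.0381). Hoxd13 midgut 4 was lower still, at 2.05 CPM. The mGFP hindguts had 501.8, 143.8, 35.6 and 1118 CPM. Thus mGFP hindgut 3 lay within the range of the Hoxd13 midguts, mGFP hindgut 1 and 4 within that of the mGFP midguts, and mGFP hindgut 2 between these ranges. The call was lost in 8 of 21 alternatives. The adjusted p was 0.108 and 0.0972 without Hoxd13 midgut 2 and 3, and 0.0683, 0.0767 and 0.0985 without mGFP midgut 1, 3 and 4, in a range of 1.12e-07 to 0.108 over all alternatives.

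ENSGALG00000050186 fell by a similar factor from a lower level. It was at 3.21, 1.52 and 0 CPM in Hoxd13 midgut 1, 2 and 3, against 29.2, 29.9, 68.7 and 22.9 CPM in mGFP midgut 1 to 4. The log2 fold change was -4.59 ± 0.86 (SE, edgeR adjusted p = 0.0381). Hoxd13 midgut 4 had 0 counts. In mGFP hindgut the gene was absent from the counts of libraries 2 and 3 and was at 30.1 and 58.6 CPM in libraries 1 and 4. Libraries 1 and 4 thus lay within the range of mGFP midgut, and libraries 2 and 3 within that of Hoxd13 midgut. The call was lost in 10 of 20 alternatives: the adjusted p was 0.108 without Hoxd13 midgut 2, and 0.0692, 0.0535, 0.0727 and 0.0928 without mGFP midgut 1, 2, 3 and 4, in a range of 0.00137 to 0.159 over all alternatives.

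The 575 lower genes took a large part of the control transcriptome. Their share of all counts was 5.86%, 4.68% and 3.24% in Hoxd13 midgut 1, 2 and 3, against 15.6%, 10.5%, 11.5% and 13.5% in mGFP midgut 1 to 4. The mean share was 4.59% ± 1.31 in Hoxd13 midgut 1 to 3 (SD, n = 3) and 12.8% ± 2.25 in mGFP midgut (SD, n = 4). The 230 higher genes moved a smaller part, with 4.89% ± 0.556 in Hoxd13 midgut 1 to 3 (SD, n = 3) and 2.85% ± 0.150 in mGFP midgut (SD, n = 4). Without ENSGALG00000032039 the share of the other 229 was 4.58% ± 0.455 in Hoxd13 midgut 1 to 3 (SD, n = 3). The same libraries had chosen the genes, which favours such differences in share, so these values are a description. In bulk tissue, fewer cells of a type and less RNA per cell cannot be told apart.

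**Figure D4:**
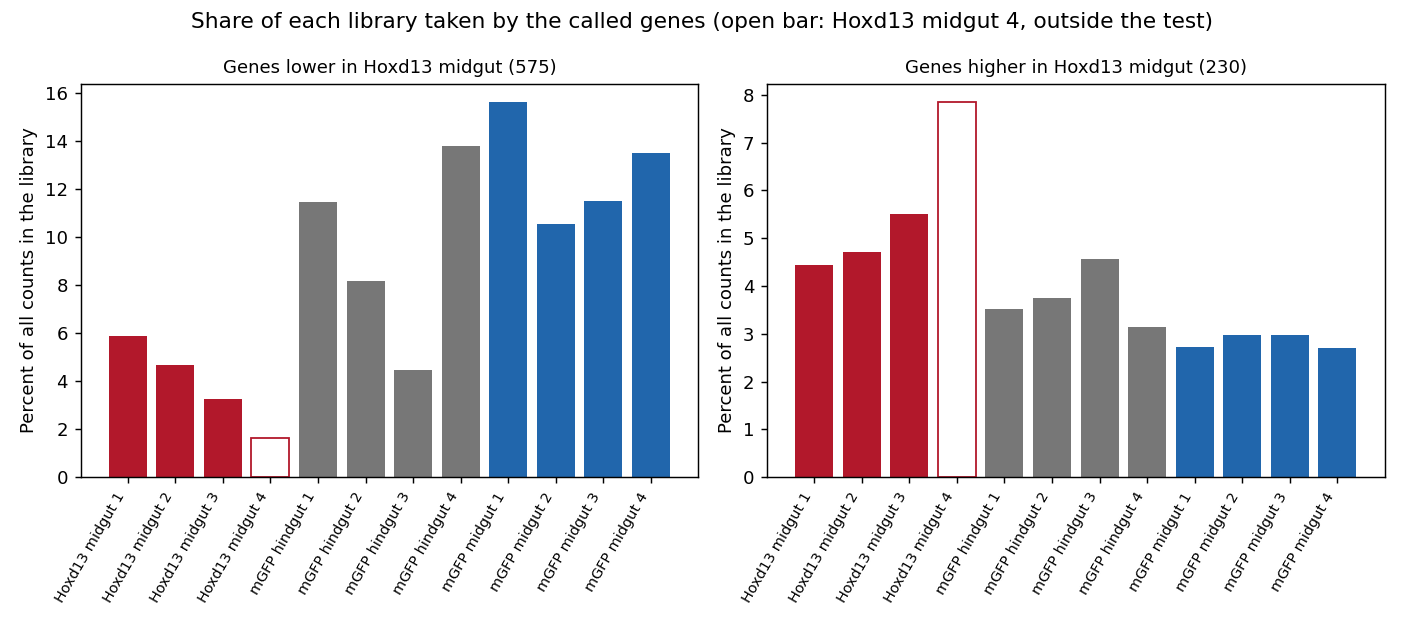
Bars give the percent of all counts in a library that fell on the 575 lower genes (left) and the 230 higher genes (right), in Hoxd13 midgut, mGFP hindgut and mGFP midgut. The lower genes hold 1.61% to 5.86% in the Hoxd13 midguts and 10.5% to 15.6% in the mGFP midguts, and mGFP hindgut 3, at 4.47%, lies within the Hoxd13 range.

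A total of 520 of the lower genes had at least 10 CPM in every mGFP midgut library. In 26 of these, Hoxd13 midgut 1 to 3 were all under 10 CPM, and in 0 were they all under 1 CPM. Single Hoxd13 libraries could still be at 0, as Hoxd13 midgut 3 was for ENSGALG00000050186. Among all 575, 2 genes had at most 3 counts in each of Hoxd13 midgut 1 to 3. Such genes could pass the CPM filter only through the mGFP midgut libraries. These counts of lower genes were not made over all tested genes, so they are a description. The 160 genes that fell by at least 4-fold (1.25% of tested genes) were set aside after their values were seen, as a description. Their median level was 23.8 CPM in Hoxd13 midgut 1 to 3 and 167.7 CPM in mGFP midgut.

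The lower genes had a common order among the Hoxd13 libraries. Relative to the mGFP midgut mean, the median log2 difference of the 575 genes was -0.85, -1.15 and -1.68 in Hoxd13 midgut 1, 2 and 3. Hoxd13 midgut 3 was the lowest of these libraries in 535 of the 575 genes (93.0%), as in 36.4% of all tested genes. For the 160 genes the medians were -2.02, -2.57 and -3.58 in Hoxd13 midgut 1, 2 and 3, with quartiles of -2.37 to -1.71, -2.99 to -2.25 and -4.10 to -3.14. The 4-fold minimum, taken from the same libraries, narrows these ranges, and over all 575 genes the quartiles in Hoxd13 midgut 3 were -2.87 to -1.01. The mGFP midguts also differed in these 160 genes, at 0.66, -0.60, -0.18 and 0.13 in mGFP midgut 1, 2, 3 and 4. The median SD of log2 CPM within a group was 0.84 in Hoxd13 midgut 1 to 3 and 0.58 in mGFP midgut for the 160 genes, against 0.21 and 0.20 over all tested genes.

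The mGFP hindguts, which took no part in the test, also varied in these genes. Relative to the mGFP midgut mean, the median over the 575 genes was -0.09, -0.42, -1.24 and 0.06 in mGFP hindgut 1, 2, 3 and 4, and over the 160 genes it was -0.15, -1.005, -2.58 and 0.26. Libraries 2 and 3 thus lay below every mGFP midgut in both medians, and library 3 was the lower of them. Because the same mGFP midguts had chosen the genes, medians below 0 are favoured here. Of the 575 lower genes, 537 (93.4%) were lowest in mGFP hindgut 3 among the mGFP hindguts, as were 32.0% of all tested genes. The median log2 difference of mGFP hindgut 3 from the mean of mGFP hindgut 1, 2 and 4 was -1.04 over the 575 genes, -2.28 over the 160 genes and 0.20 over the 230 higher genes, against -0.004 over all tested genes. This difference uses no midgut library. It was computed for mGFP hindgut 3 alone, the mGFP hindgut with the lowest median in the lower genes. That choice favours values below 0 in those genes, so the difference is a description. In 291 of the 575 lower genes (50.6%) and 155 of the 160 (96.9%), mGFP hindgut 3 was at least 2-fold below the mean of the other mGFP hindguts, as in 6.75% of tested genes. The higher genes held 2 such genes of 230 (0.870%). Of the 9 lower genes called in every fit with 1 library left out, 7 were among those at least 2-fold lower in mGFP hindgut 3. The total of mGFP hindgut 3 was 10444020 counts and it had counts in 14565 genes, the lowest number among the 11 libraries other than Hoxd13 midgut 4. Which cells express these genes could not be looked up without names, and the part of cell mixture in the result was not tested.

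**Figure D5:**
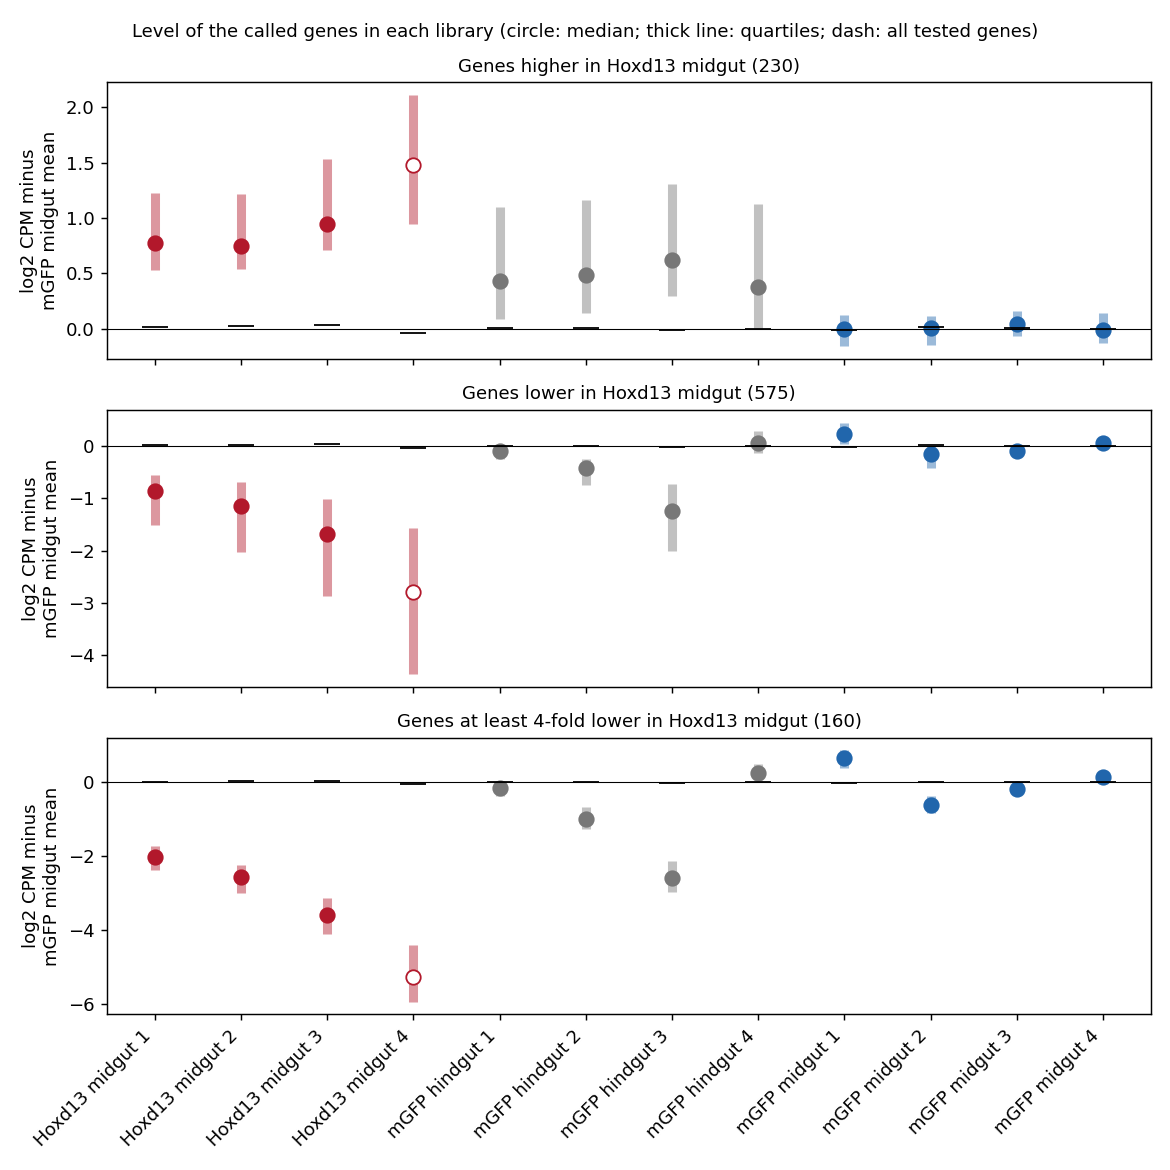
Circles are the median, and thick lines the quartiles, of log2 CPM minus the mGFP midgut mean over the 230 higher genes, the 575 lower genes and the 160 genes at least 4-fold lower; dashes are the median of all tested genes. The lower genes are lowest in Hoxd13 midgut 4 and lie below every mGFP midgut in mGFP hindgut 3 and, by less, in mGFP hindgut 2, but not in mGFP hindgut 4, while the higher genes lie above 0 in every Hoxd13 midgut and mGFP hindgut.

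The higher genes were more even. Their median log2 difference from the mGFP midgut mean was 0.78, 0.75 and 0.95 in Hoxd13 midgut 1, 2 and 3, with Hoxd13 midgut 3 the highest in 148 of the 230 (64.3%), as in 31.2% of tested genes. Within Hoxd13 midgut 1 to 3 the median SD of log2 CPM was 0.23, close to the 0.21 of all tested genes. A smaller change needs a smaller spread to be called, which favours this evenness, so it is a description. In mGFP hindgut 1, 2, 3 and 4 the medians of these 230 genes were 0.44, 0.49, 0.62 and 0.38. These values use the mGFP midguts that also chose the genes, which favours values above 0. Among the mGFP hindguts, library 3 was the highest in 117 of the 230 (50.9%), as in 29.6% of tested genes.

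Hoxd13 midgut 4 was then set on these changes. It lay above all 4 mGFP midguts in 218 of the 230 higher genes (94.8%), as in 40.9% of tested genes, and below all 4 in 562 of the 575 lower genes (97.7%), as in 42.8%. Because the same controls had chosen the genes, this placement is a description. In all 23 higher and all 9 lower genes called in every fit with 1 library left out, it lay beyond all 4 mGFP midguts on the called side. Its median log2 difference from the mGFP midgut mean was 1.48 over the higher genes and -2.79 over the lower genes, further out than in Hoxd13 midgut 1, 2 or 3. Set against the other Hoxd13 libraries alone, it was the highest in 146 of the 230 higher genes (63.5%), as in 39.2% of tested genes, and the lowest in 508 of the 575 lower genes (88.3%), as in 43.4%. Its values over all tested genes were wide, with quartiles of -0.997 and 0.664, where Hoxd13 midgut 3 had -0.355 and 0.303. A total of 1107 tested genes were under 1 CPM in Hoxd13 midgut 4, against 189 to 354 in Hoxd13 midgut 1 to 3 and 350 to 414 in mGFP midgut. The part of its low gene number in the size of its differences was not tested.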

How the data were processed

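The authors deposited estimated counts per Ensembl gene as whole numbers, so rounding changed none. The submitters' processing notes name Salmon, DESeq2 and the build GRCg6a, with no version or role. The annotation release is not given in the sources used here. Totals differed between libraries, and the values were treated as unnormalized.

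The test was edgeR 4.0.16 in R 4.3.3 (quasi-likelihood F test, robust dispersion, TMM scaling, two-sided), fitted to the 7 libraries with no covariate. A gene was called when its Benjamini-Hochberg adjusted p over all 12835 tested genes was under 0.05. Standard errors come from the F statistic. CPM printed per library uses TMM factors over the 12 libraries, and log2 CPM has a prior count of 2. Shares use raw totals. DESeq2 1.42.0 and limma 3.58.1 (voom) served as alternatives.

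Members, gene lists and rules were chosen with earlier results of these data known. The rule for named genes asked for HOXD13 and, without symbols, for the 2 higher and 2 lower IDs with the largest change among called genes with an average log2 CPM (edgeR's) of at least 2 and no overlap between groups. The reference table, for GRCg7b, has 25635 rows and 0 filled Ensembl cells.

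Whether replicates were separate embryos is not stated in the labels, so the p-values reflect only the spread between these libraries, possibly a technical one. The squared difference between replicates was 16.1 to 54.6 times the variance that sampling of counts alone gives, so no pair was treated as the same library deposited again. This does not separate embryos from technical repeats.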

Additional observations from a re-analysis of the deposited data

Results flagged for a closer look

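Of 30 sets of 4 values examined, 6 held a library far from the other 3. The low gene number of Hoxd13 midgut 4 was known beforehand and the sets overlap, so this tally cannot be set against chance. Hoxd13 midgut 4 had counts in 13480 genes, where Hoxd13 midgut 1 to 3 had 14639 to 14809, and 34.0% of its counts lay in its 100 most abundant genes. For mGFP midgut 1 the number of genes with a count was 14818, where the other mGFP midguts had 14659 to 14670. ENSGALG00000032039 stood at 61.3 CPM in mGFP hindgut 4, against 21.1 to 27.8 CPM in the other mGFP hindguts. ENSGALG00000050186 stood at 68.7 CPM in mGFP midgut 3, against 22.9 to 29.9 CPM in the other mGFP midguts. ENSGALG00000005360 had 0 CPM in mGFP midgut 3 and 1 count in each other mGFP midgut, a difference of 1 count.

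In the mGFP hindguts, which the test did not use, ENSGALG00000032039 averaged 33.9 ± 18.5 CPM (SD, n = 4), with each library above every mGFP midgut. The genes lower in Hoxd13 midgut were also lower in mGFP hindgut 3 than in the mean of the other mGFP hindguts, by a median log2 difference of -1.04. This item was listed by choice, without a threshold. It covers only mGFP hindgut 3, the mGFP hindgut with the lowest median in these genes.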

How the results depend on the processing

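The 805 genes called (230 higher, 575 lower) became 1346 with column totals, 1591 with DESeq2, 324 with Hoxd13 midgut 4, 306 with the mGFP hindguts in the fit, 446 where a 2-fold change was also required and 22 at an adjusted p under 0.01. Higher genes numbered 801 with column totals, 532 with upper-quartile scaling, 426 with DESeq2, 81 with Hoxd13 midgut 4, 93 at 2-fold or more and 16 at the stricter p. Lower genes numbered 1165, 243, 123, 353 and 6 with DESeq2, Hoxd13 midgut 4, the mGFP hindguts, the 2-fold minimum and the stricter p. Without single libraries the ranges were 43 to 1428 genes called, 26 to 377 higher, 14 to 1051 lower and 20.6% to 79.1% higher. Lower genes outnumbered higher genes in 14 of 21 alternatives; the share of higher genes was 59.5% with column totals, 51.1% with upper-quartile scaling, 59.8% with the mGFP hindguts and 72.7% at the stricter p. No clear pairing by replicate number was seen: deviations from the group means correlated at 0.197, -0.113 and 0.016 between same-numbered libraries. Libraries with different numbers had -0.155 to 0.264, and so few libraries cannot exclude a pairing. The replicate block gave 492 genes, 80 higher and 412 lower (16.3% higher), with 393 of the 805. ENSGALG00000032039 and ENSGALG00000005360 kept their calls in all 20 alternatives that tested them. Among these, the 2-fold minimum and the stricter p read the same fit again, so their outcome for these genes was fixed beforehand. The placement of Hoxd13 midgut 4 moved little, with 208 to 219 higher genes and 562 to 572 lower genes beyond all mGFP midguts. The cause of these changes was not tested, apart from the stricter rule where that was the alternative itself. A fit with a library left out changed both the number of libraries and their identity, and these were not separated.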
